A study of Mus musculus with 10 samples.

Results

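The cytosolic ribosomal protein genes encode the proteins of the ribosome that translates messenger RNA in the cytosol. They were described here in cells labelled microglia/macrophage from the retina and the optic nerve of mice. Members were chosen by symbol alone. They are the genes called Rpl (large subunit) or Rps (small subunit) and a number, with Rplp0, Rplp1, Rplp2, Rpsa and Fau, and without pseudogene symbols, Rps6k kinases or mitochondrial ribosomal proteins. The rule found 88 members among 52181 gene entries, 53 of the large and 35 of the small subunit. A transcript molecule was seen for 85 of them, and 82 passed the filters on low values in both tissues. The 6 that did not pass were Rpl10l, Rps12l1 and Rps4l, with no molecule in any library, and Rpl3l, Rpl6l and Rpl39l, with 1, 1 and 61 molecules in all. Of these, Rps12l1, Rps4l and Rpl6l match the rule by symbol but are annotated as processed pseudogenes.

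Wildtype mice of the 129S1/SvlmJ strain and of both sexes were used at 10 weeks of age according to the design text, whereas the strain label also reads P56. Injured animals had an optic nerve crush, which severs the axons of retinal ganglion cells, at 8 weeks, so tissue was taken 2 weeks after crush, and uninjured animals had no treatment. Single cells were captured with droplet chemistry that counts transcript molecules by unique molecular identifiers (UMIs), and 1168 cells held 7920570 UMIs. The 8 libraries were 2 of uninjured retina (samples 5 and 6), 2 of injured retina (pools of samples 1 and 2, and of samples 3 and 4), 2 of uninjured optic nerve (2 and 4) and 2 of injured optic nerve (1 and 3). The animals behind a library are not named, so p-values measure the spread between libraries, which may be technical.

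Libraries differed in size from 12 cells and 56838 UMIs (uninjured retina 6) to 682 cells and 5234954 UMIs (injured optic nerve 3). The last 24183 gene entries held no UMI in uninjured retina and held some in every other library, so gene annotation or merging differed between groups. In retina this cannot be told apart from crush, and between uninjured tissues it cannot be told apart from tissue. Microglia markers were present in every library (9 or 10 of 10 genes with a UMI), but their summed level was lower in injured retina (5883 and 5561 CPM, a gene's UMIs scaled to a common library total) than in uninjured retina (12704 and 15905 CPM). T cell markers reached 301 and 885 CPM in injured retina against 7.0 and 0 in uninjured retina. Oligodendrocyte markers lay at 11949 and 8393 CPM in uninjured and 6037 and 1216 CPM in injured optic nerve, against 70.0 to 90.1 CPM in retina. There were 2 barcodes that each occurred in 2 cells, and no doublet caller was run.

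Ribosomal proteins are made in near-equal numbers and assembled with ribosomal RNA in the nucleolus, and their messenger RNAs are among the most abundant of a cell. Most begin with a terminal oligopyrimidine tract, a run of C and U at the 5′ end through which mTOR signalling and Larp1 set their translation, so messenger RNA level and protein output can part. In many cell types these transcripts are high in growing cells.

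Sequence upstream of the start is shown for 4 of the 12 members with the smallest p-values for crush in retina (6 of each subunit), taken in order of p, to compare the start regions of members that rose. The sequences come from RefSeq promoter windows on GRCm38.p6, 5′ to 3′ on the gene's strand, and are cut where any annotated exon begins. Rps25, Rplp2, Rps12 and Rpl12 were passed over because fewer than 100 bases outside exons remained, and Rpl17, Rpl23a and Rps14 are not shown. Capitals mark the searched motif CCGGAAG. The window of Rps15, which encodes a protein of the small subunit head, is chr10:80292281-80292430, plus strand. That of Rpl5, whose protein carries 5S ribosomal RNA, is chr5:107900378-107900501, plus strand. That of Rpl13a is chr7:45128762-45128895, minus strand. That of Rps6, the substrate of S6 kinase, is chr4:86857413-86857517, minus strand.
Rps15: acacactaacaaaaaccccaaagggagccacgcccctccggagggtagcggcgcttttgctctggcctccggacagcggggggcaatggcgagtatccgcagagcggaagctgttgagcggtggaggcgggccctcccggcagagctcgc
Rpl5: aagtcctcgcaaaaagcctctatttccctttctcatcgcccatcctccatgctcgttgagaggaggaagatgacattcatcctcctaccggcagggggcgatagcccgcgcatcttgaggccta
Rpl13a: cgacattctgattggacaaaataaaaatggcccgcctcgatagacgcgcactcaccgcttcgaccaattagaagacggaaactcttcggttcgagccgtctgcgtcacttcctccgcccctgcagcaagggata
Rps6: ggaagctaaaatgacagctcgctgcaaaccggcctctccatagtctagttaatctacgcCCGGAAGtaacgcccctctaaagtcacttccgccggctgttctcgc

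Among these sequences the motif was found in Rps6 and not in Rps15, Rpl5 or Rpl13a. Over the whole windows, 250 bases before to 50 after the start, 4 motifs were searched on both strands in the 65 members with a window. CCGGAAG, the core bound by Ets family factors such as Gabpa, was in 26 of 65 members (40.0%) and in 9.87% of 26931 other genes. AAGATGG, the core of the YY1 motif, was in 16.9% of members and 7.26% of other genes. CTCTTTC, a pyrimidine run of the kind that begins these transcripts, was in 29.2% and 9.24%. TATAAA, the TATA box core, was in 10.8% of members and 15.7% of other genes. A match is a description of letters, and CCGGAAG and AAGATGG can share their AAG. The other 23 members have no window in the table used.

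The members' summed share of UMIs was higher in both injured retina libraries than in any other library. Uninjured retina held 12.2% and 9.35% of its UMIs in members (samples 5 and 6), and injured retina held 24.4% and 23.9%. Uninjured optic nerve held 16.0% and 14.9% (samples 2 and 4), and injured optic nerve held 17.2% and 15.1% (samples 1 and 3). The 95% exact binomial intervals, which cover counting error only, were widest for uninjured retina 6, from 9.11% to 9.60%. The retina groups did not overlap, and the optic nerve groups did. T cell-like cells made up 20.2% and 42.1% of the injured retina libraries and had shares of 32.5% and 27.6%; with T cell-like and the other non-phagocyte classes (oligodendrocyte-like, endothelial-like) left out, the injured retina libraries held 23.7% and 23.2%, against 12.2% and 9.35% in uninjured retina.

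**Figure D1:**
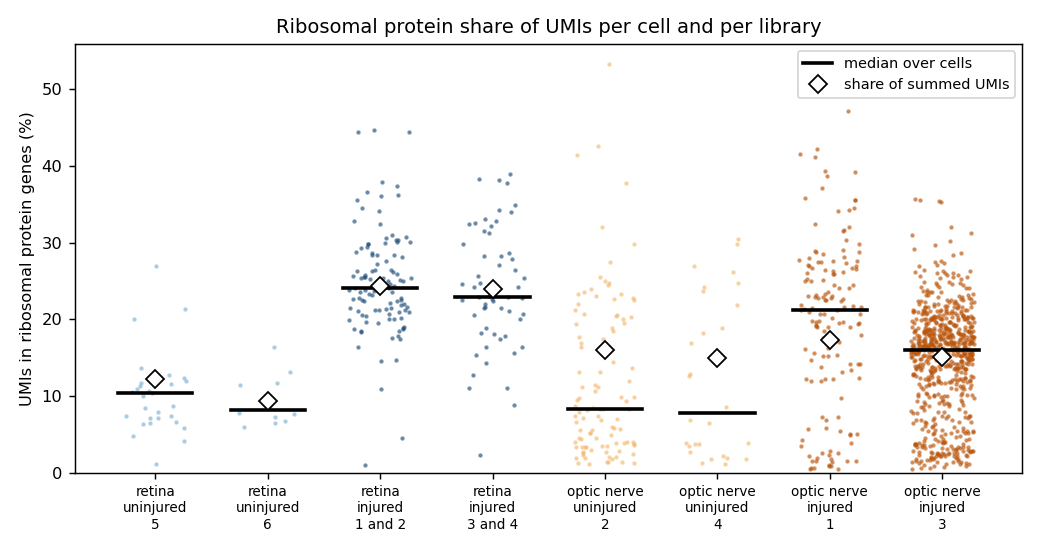
Percent of each cell's UMIs in ribosomal protein genes (y axis), by library (x axis). Points are cells, black bars are medians over cells and white diamonds are the share of the library's summed UMIs. The 2 injured retina libraries have medians of 24.0% and 22.9% against 10.4% and 8.14% in uninjured retina, and in optic nerve the medians and the summed shares part.

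Per cell, the median share in uninjured optic nerve was 8.35% and 7.75%, and in injured optic nerve it was 21.2% (sample 1) and 16.0% (sample 3). The summed shares of the same libraries differed far less. The tenth of cells with the most UMIs held 33.4% and 36.5% of UMIs in uninjured and 43.4% and 41.6% in injured optic nerve. Border macrophage-like cells were 45 of 103 cells in uninjured optic nerve 2 and held 215309 of its 351333 UMIs, with a member share of 19.1%. In uninjured optic nerve 4 they were 1 of 28 cells. In injured optic nerve 1 and 3 they were 6.16% and 3.96% of cells, with shares of 18.8% and 15.6%. Clusters built without the members differed in share. In a cluster led by Dennd4a, Tnfaip2 and Sbno2, which stayed unnamed, the median share was 3.50% and 3.53% in uninjured and 4.94% and 3.65% in injured optic nerve. In another unnamed cluster, led by Cxcl13, Cst7 and Tmsb4x, it was 24.5% and 24.5% in uninjured and 24.4% and 18.2% in injured optic nerve. In the second cluster neither injured library lay above the uninjured ones. The second cluster held 95 of 146 and 326 of 682 cells in injured optic nerve but 11 of 103 and 8 of 28 in uninjured optic nerve. Cells of the first cluster had a median of 3.22% to 5.26% of UMIs in the nuclear RNA Malat1 and a median of 1478 to 2349 UMIs per cell, across the 4 libraries. Cells of the second had 0 to 0.103% in Malat1 and 650 to 1047 UMIs per cell. The part of these differences in the members' levels was not tested.

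In retina, most members were higher after crush. With edgeR's quasi-likelihood test on UMIs summed per library, 54 of 82 members tested rose and 1 fell at an adjusted p under 0.05, where 9.99% of all 3312 genes tested rose and 9.72% fell. The median log2 fold change of the members was 1.10, against 0.07 over all genes tested. Of the large subunit 30 of 49 rose (median 1.06), and of the small subunit 24 of 33 rose (median 1.17). The injured libraries were both above the uninjured ones in CPM for 76 of 82 members, where 32.8% of all genes did so. In every one of the 14 fits run (the main one and 13 others), 24 members rose, among them Rps15, Rpl17, Rpl23a, Rpl5, Rplp1 and Rplp2. With edgeR over all 8 libraries 26 members rose, among 208 genes called in either direction. Without the pool of samples 1 and 2, which leaves 1 injured library, fewer members passed, and their median log2 fold change was 1.16.

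Most cells of uninjured and of injured retina lay in different clusters, which were built without the members. Of uninjured retina cells, 29 of 31 and 12 of 12 were in an unnamed cluster with Ccl3, Ccl4 and Jun among its leading genes and with a median share of 10.0% and 8.14% of UMIs in members. Of injured retina cells, 85 of 109 and 32 of 57 were in another unnamed cluster, led by Gm42418, 2410006H16Rik and the heat shock gene Hsp90aa1, with a median share of 23.7% and 21.7%. A further 22 and 24 injured retina cells were T cell-like. All 117 cells of the cluster led by Gm42418 came from injured retina, so the retina change mostly compares cells of different clusters. The lower microglia marker level and the higher T cell marker level in injured retina move with the members' rise. The part of the cluster makeup and of the marker levels in that rise was not tested; leaving out T cell-like and the other non-phagocyte classes gave the library shares above.

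Of the 3 stalk genes, Rplp1 and Rplp2 rose in retina. The stalk is the flexible arm of the large subunit that recruits elongation factors, built from Rplp0 with dimers of Rplp1 and Rplp2. Rplp2 lay at 728 and 475 CPM in uninjured and 4235 and 3609 CPM in injured retina, a log2 fold change of 2.67 ± 0.33 (SE) with an edgeR adjusted p of 0.000423. Rplp1 lay at 1709 and 1900 CPM in uninjured and 6572 and 6044 CPM in injured retina (1.84 ± 0.28, edgeR adjusted p = 0.00133). Injured libraries did not overlap uninjured ones for either gene. The base of the stalk, Rplp0, lay at 1709 and 1179 CPM in uninjured and 2181 and 1940 CPM in injured retina, and its log2 fold change of 0.50 ± 0.30 did not pass (edgeR adjusted p = 0.259). Whether Rplp0 differs from its partners was not tested.

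Rpsa, the small subunit protein also known as a laminin receptor precursor, had 1450 and 1091 CPM in uninjured and 2966 and 2753 CPM in injured retina and rose by 1.17 ± 0.30 on the log2 scale (edgeR adjusted p = 0.0195). Fau and Rps27a are made as fusions to a ubiquitin-like protein and to ubiquitin, which are then cut off. Fau had 3565 and 1953 CPM in uninjured and 7469 and 7549 CPM in injured retina (1.42 ± 0.36, edgeR adjusted p = 0.0190). Rps27a had 2458 and 1918 CPM in uninjured and 4344 and 4233 CPM in injured retina (0.97 ± 0.29, edgeR adjusted p = 0.0401). Both uninjured libraries were below both injured ones for all 3 genes.

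Of the large subunit, Rpl17, which sits at the exit of the peptide tunnel, had the smallest p. Its level was 434 and 352 CPM in uninjured and 3457 and 3268 CPM in injured retina, a log2 fold change of 3.08 ± 0.31 (edgeR adjusted p = 9.68e-05). Rpl23a, also at the tunnel exit where signal recognition particle docks, had 245 and 369 CPM against 2445 and 2107 CPM (2.97 ± 0.31). Rpl5 had 259 and 246 CPM against 1941 and 1714 CPM (2.85 ± 0.30). These genes separated the groups without overlap. Rpl13a, known for a role outside the ribosome in interferon-gamma-dependent control of translation, had 378 and 352 CPM against 2277 and 2100 CPM (2.58 ± 0.29). Rpl12, at the base of the stalk, had 721 and 633 CPM against 3105 and 2589 CPM (2.07 ± 0.29). The edgeR adjusted p-values of Rpl23a, Rpl5, Rpl13a and Rpl12 were 0.000114, 0.000125, 0.000181 and 0.000796.

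Of the small subunit, Rps15 had the largest change of all members. Its level was 203 and 141 CPM in uninjured and 2416 and 1981 CPM in injured retina, a log2 fold change of 3.61 ± 0.34 (edgeR adjusted p = 8.92e-05). Rps25, which many viral internal ribosome entry sites need, had 518 and 475 CPM against 2709 and 2371 CPM (2.36 ± 0.29). All injured values lay above all uninjured ones for these genes. Rps6 had 322 and 493 CPM against 1728 and 1843 CPM (2.21 ± 0.29). Rps12 had 1072 and 897 CPM against 5127 and 4564 CPM (2.30 ± 0.30). Rps14, one of the genes lost in the human 5q deletion syndrome, had 784 and 809 CPM against 3703 and 3246 CPM (2.15 ± 0.28). The edgeR adjusted p-values of Rps25, Rps6, Rps12 and Rps14 lay between 0.000384 and 0.000534.

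**Figure D2:**
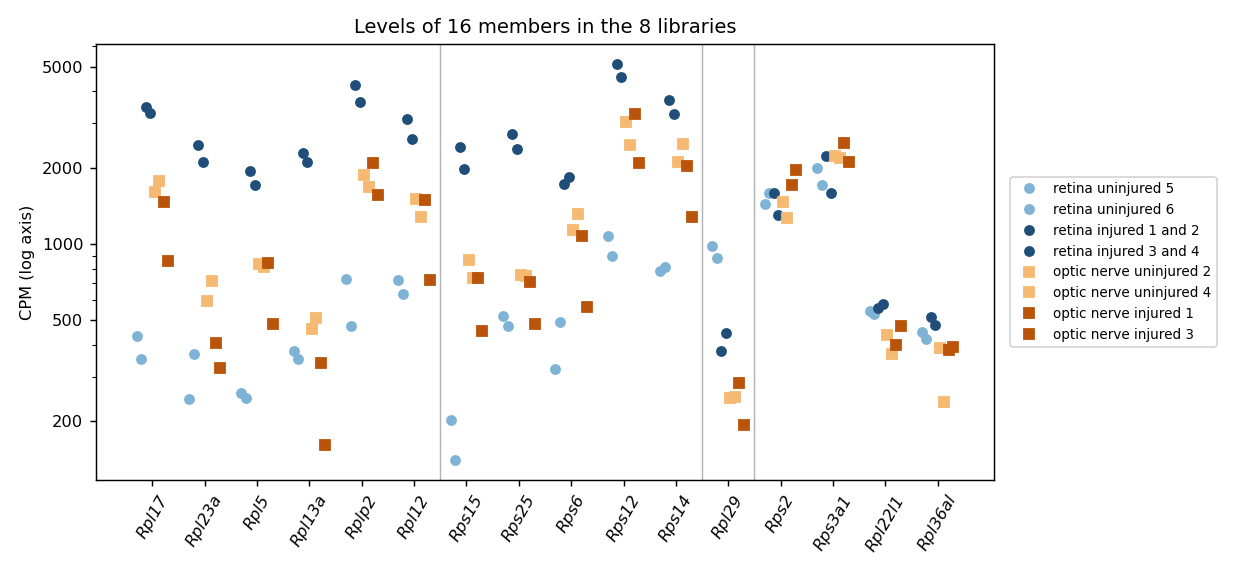
CPM on a log axis (y) of 16 members (x) in the 8 libraries. From left to right the lines separate 6 large subunit and 5 small subunit members chosen by the smallest p, Rpl29, and the 4 members nearest to no change in retina. The injured retina points (dark blue) lie above the uninjured ones (light blue) for the first 11 members and below them for Rpl29.

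Rpl29, a large subunit protein that also binds heparin, moved the other way. It had 980 and 880 CPM in uninjured and 380 and 444 CPM in injured retina and fell by 1.18 on the log2 scale (SE 0.27, edgeR adjusted p = 0.0124). This call was lost with no filter on low counts, with edgeR over all libraries, with limma and without any of 3 libraries (uninjured 5 or either injured pool). In optic nerve, Rpl29 lay at 248 and 250 CPM in uninjured and 282 and 193 CPM in injured libraries, below every retina library.

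The members nearest to no change in retina were Rps2, Rps3a1, Rpl22l1 and Rpl36al. Rps2, at the channel where messenger RNA enters, had 1443 and 1583 CPM in uninjured and 1581 and 1299 CPM in injured retina, a log2 fold change of -0.04 ± 0.26. Rps3a1 had 1989 and 1707 CPM against 2225 and 1586 CPM (0.06 ± 0.29). For both the groups overlapped. Rpl22l1 had 546 and 528 CPM against 559 and 582 CPM (0.10 ± 0.26), and Rpl36al had 448 and 422 CPM against 514 and 479 CPM (0.20 ± 0.26). The edgeR adjusted p-values of these genes were between 0.637 and 0.944, which does not show that they were equal.

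Some members have a paralogue that the symbol rule also includes. Rpl22 had 826 and 475 CPM in uninjured and 1446 and 1547 CPM in injured retina and rose by 1.15 ± 0.33 (edgeR adjusted p = 0.0303), while its paralogue Rpl22l1 was given above. Rps27 had 2773 and 1390 CPM against 4276 and 4976 CPM (1.12 ± 0.37, edgeR adjusted p = 0.0524), and Rps27l, a p53 target, had 182 and 88.0 CPM against 139 and 125 CPM (-0.17 ± 0.38). Rpl36a had 917 and 229 CPM against 1572 and 1283 CPM (1.19 ± 0.47, edgeR adjusted p = 0.0921). Rpl7 rose from 700 and 739 CPM to 1720 and 1776 CPM (1.3 ± 0.27, edgeR adjusted p = 0.00685), and Rpl7l1 had 56 and 70.4 CPM against 40.1 and 48.2 CPM (-0.51 ± 0.47). In these pairs the main copy had the higher estimate and the paralogue did not pass, and the difference within a pair was not tested. Of main copies whose paralogue was not measurable, Rpl10 rose by 1.05 ± 0.27 (edgeR adjusted p = 0.0192), and Rpl3, Rpl39 and Rps4x, at 0.88, 0.35 and 0.86, did not pass.

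**Figure D3:**
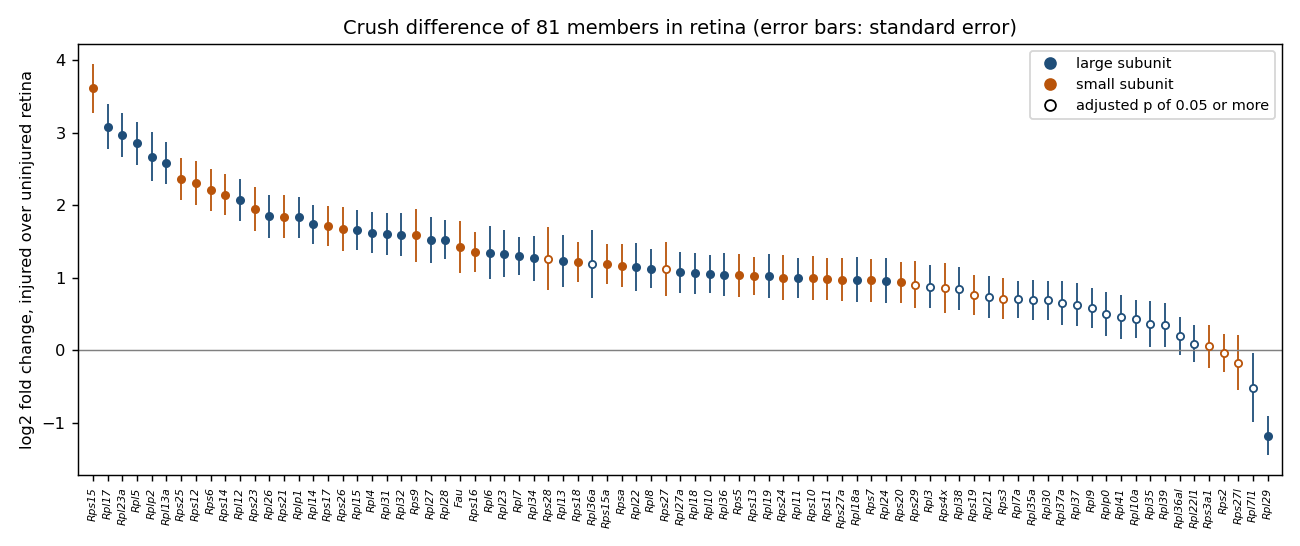
Log2 fold change between injured and uninjured retina (y axis) with its standard error for 81 of the 82 members tested, ordered by size (x axis). Filled points passed at an adjusted p under 0.05. Estimates ran from 3.61 for Rps15 to -1.18 for Rpl29, and 77 of the 81 were above 0.

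Members also varied in how alike 2 libraries were. Between the injured retina libraries, the SD over 82 members of the difference in log2(CPM + 1) was 0.13, and between the uninjured retina libraries it was 0.42. Between an uninjured and an injured retina library it was 0.80 to 0.85, so members changed by unequal amounts. Between the uninjured optic nerve libraries it was 0.22 and between the injured ones 0.30. The uninjured retina libraries also differed in level, with sample 5 above sample 6 by a median of 0.31.

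Counting can mix members with their processed copies, since ribosomal protein genes have many pseudogenes. Of the members tested, 50 had an annotated copy with at least 95% identity over at least 90 of the last 200 bases, and their median log2 change in retina was 1.05, against 1.18 for the 32 without one. Across the 82 members the change had a Spearman correlation of -0.12 with the number of such copies and of 0.14 with the number of small nucleolar RNA genes inside the gene, as a description. Rps15 had 5 near-identical copies and Rpl23a had 23, whereas Rpl5, Rpl13a and Rps25 had none but overlap other annotated genes. Entries for pseudogenes, 271 in all, held a UMI in 10 cases and were at most 0.207 per 100 member UMIs in any library. Rpl27-ps3 held 13 and 6 UMIs in uninjured retina and none in injured retina, and Rps12-ps3 held 5 and 3 against none. In the other direction, Rpl10-ps3 held 43 and 8 in injured retina and Rpl9-ps6 held 41 and 7, with none in uninjured retina. These entries lie among those used for the retina test. There Rpl27-ps3 was called lower, with a log2 fold change of -8.53 ± 0.77 (edgeR adjusted p = 9.68e-05) that rests on its absence from injured retina. Whether gene annotation or merging also differed between the retina groups among the entries used was not tested. Adding the pseudogene entries to their parent genes left 54 members higher, but so few UMIs could hardly move the calls. Of the 271 entries, 255 lay among those with no UMI in uninjured retina. This fit therefore does not answer whether counting mixed members with their copies.

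In optic nerve, few members passed the test. They were tested with limma on the mean over cells of the natural log of 1 plus the UMIs per 10000, so that an effect is a difference of mean ln values. Of 82 members, 2 rose and 0 fell at an adjusted p under 0.05, where 0.359% of all 5298 genes rose and 0.208% fell. At an unadjusted p under 0.05, 41 members rose and 0 fell on mean ln values. With limma on log2 CPM plus 1, 2 rose and 2 fell at that threshold. The share of all genes at that threshold was not counted. The median difference was 0.47 against -0.02 over all genes. Neither call was made on the other scales. On recovered counts, edgeR and DESeq2 called 0 members, among 0 and 58 genes called in either direction. At an unadjusted p under 0.05 both also had 0 members. Limma on log2 CPM plus 1 and plus 10 called 0 members, among 6 and 20 genes called. With so few genes called in all, these counts of 0 say little about the members. On simulated optic nerve data limma found 3% of genes changed by 1 on the log2 scale and 38% of those changed by 2, so its power was low for those genes. They were drawn from all genes above the median level, and power at the members' own levels was not simulated.

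Other levels moved with crush in the same optic nerve fit. Of 13 mitochondrially encoded genes, 5 fell and 0 rose at an adjusted p under 0.05, with a median difference of -0.96. Of all genes, 0.208% fell. At an unadjusted p under 0.05, 11 of the 13 fell and 0 rose, with no share of all genes counted. The ATP synthase gene mt-Atp6 had 15837 and 7620 CPM in uninjured and 11380 and 5500 CPM in injured optic nerve, and its mean ln value fell by 1.29 (SE 0.19, limma adjusted p = 0.00274). Its groups overlapped in CPM. Oligodendrocyte markers were also lower in both injured optic nerve libraries, and oligodendrocyte-like cells held 6.85% of their UMIs in members in uninjured optic nerve 2 and 3.88% and 8.41% in injured optic nerve 1 and 3. The part of these levels in the members' differences was not tested.

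Rpl41, the smallest ribosomal protein, had 2946 and 2710 CPM in uninjured and 3847 and 4610 CPM in injured optic nerve, and its mean ln value was higher by 0.99 ± 0.18 (limma adjusted p = 0.0112). Fau had 4047 and 3186 CPM in uninjured and 5412 and 5202 CPM in injured optic nerve (0.84 ± 0.15 and a limma adjusted p of 0.0122). Both genes were higher in both injured libraries. Injured libraries lay above uninjured ones in CPM for 26 of 82 members and below for 12, where 15.7% and 23.5% of all genes did so. Without injured optic nerve 3, which leaves 1 injured library, neither call was kept and the members' median difference was 0.56.

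The stalk genes, Rpsa and Rps27a gave no call in optic nerve. Rplp1 had 5306 and 4993 CPM in uninjured and 4913 and 3042 CPM in injured optic nerve, lower after crush in CPM, while its mean ln difference was 0.33 ± 0.18 (limma adjusted p = 0.676). Rplp2 had 1864 and 1676 CPM against 2083 and 1565 CPM (0.46 ± 0.24), Rplp0 1827 and 1593 CPM against 2083 and 1986 CPM (0.40 ± 0.23). Rpsa had 1887 and 1593 CPM against 2190 and 2121 CPM (0.64 ± 0.22), and Rps27a 2505 and 2401 CPM against 2905 and 2675 CPM (0.45 ± 0.20). The injured values of Rplp0, Rpsa and Rps27a lay above the uninjured ones, and those of Rplp2 spanned them. The members nearest to no change were Rpl4 (-0.00), Rpl17 (0.01), Rpl5 (0.02) and Rpl14 (0.02). Rpl17, with the second largest rise in retina, had 1600 and 1771 CPM in uninjured and 1468 and 861 CPM in injured optic nerve.

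Paralogues in optic nerve gave no call. Rpl22 and Rpl22l1 differed by 0.21 and 0.08 in mean ln value, Rps27 and Rps27l by 0.44 and 0.12, Rpl36a and Rpl36al by 0.27 and 0.36, and Rpl7 and Rpl7l1 by 0.47 and -0.04. Rpl3, Rpl10, Rpl39 and Rps4x differed by 0.53, 0.49, 0.48 and 0.67.

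The crush difference itself was then compared between tissues. In limma's interaction, the optic nerve difference minus the retina difference, 9 of 82 members were lower and 0 higher, where 3.91% of all genes were lower and 1.70% higher. At an unadjusted p under 0.05, 24 members were lower and 0 higher, with no share of all genes counted. Rpl17 had an interaction of -2.17 ± 0.36 (limma adjusted p = 0.00338), from 2.18 in retina and 0.01 in optic nerve. Rps15 differed by -2.10 ± 0.37 (limma adjusted p = 0.00429), from 1.94 and -0.16. Rps21 differed by -1.48 ± 0.29 (limma adjusted p = 0.00813), from 1.60 and 0.12. Rpl23a, Rpl13a, Rpl5, Rps25 and Rplp2 were also among them. The highest were Rps3a1, Rps2 and Rpl41 at 0.69, 0.67 and 0.40, which did not pass. With no filter on low values 1 member passed, among 28 genes called. On counts, edgeR gave 8 lower and 0 higher, among 49 genes called in either direction.

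**Figure D4:**
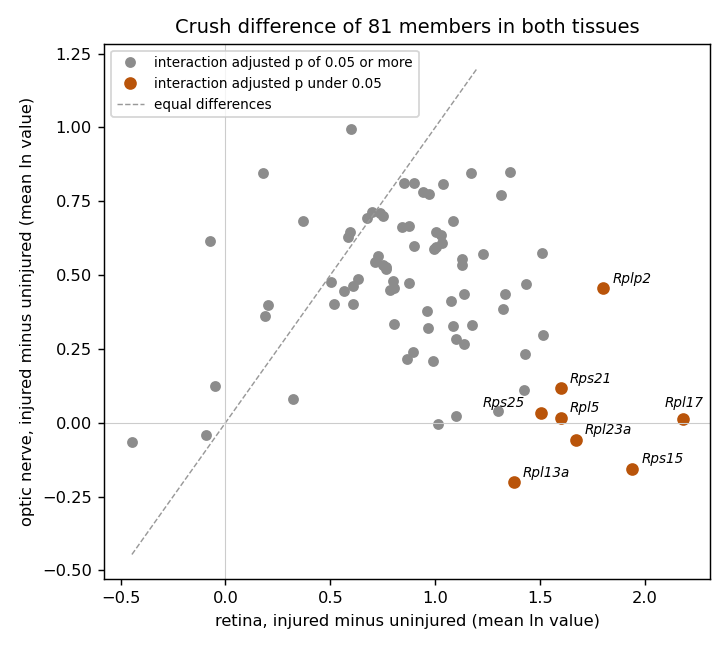
Difference in mean ln value between injured and uninjured libraries in retina (x axis) and in optic nerve (y axis) for 81 of the 82 members. Orange points passed the interaction at an adjusted p under 0.05 and are named, and the dashed line marks equal differences. The difference was larger in retina for 68 of the 81 members and above 0 in both tissues for 73.

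Between uninjured tissues the direction of the members depended on the scale, and the difference in gene annotation or merging cannot be told apart from tissue. On mean ln values, 11 of 82 members were lower in optic nerve and 1 was higher (backgrounds 8.25% and 1.77%), with a median of -0.37. On CPM scales the median turned to 0.37 (edgeR) and 0.46 (limma on log2 CPM plus 1), with 6 and 15 members higher and 1 and 1 lower. The CPM-scale fits called 186 and 205 genes in all, in either direction. Rpl29 was lower on each of these scales, by 1.28 ± 0.21 on mean ln values, with 980 and 880 CPM in retina and 248 and 250 CPM in optic nerve. Rps21, the member called higher, had 1345 and 1056 CPM in retina and 3601 and 3126 CPM in optic nerve (0.71 ± 0.21, limma adjusted p = 0.0373). Rps15 (0.73) and Rpl17 (0.64) did not pass on mean ln values. Rpl35a was called lower (-0.83 ± 0.19, limma adjusted p = 0.0104) although its CPM was 2738 and 2569 in retina and 3145 and 2912 in optic nerve. Rpl41 was also called lower (-0.78 ± 0.18, limma adjusted p = 0.0105), with 3418 and 2481 CPM in retina and 2946 and 2710 CPM in optic nerve.

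Between injured tissues, members were lower in optic nerve. On mean ln values 60 of 82 were lower and 0 higher (backgrounds 12.7% and 0.755%), with a median of -0.78. At an unadjusted p under 0.05, 76 were lower and 0 higher, with no share of all genes counted. At that threshold 16 were lower with edgeR on counts and 39 with limma on log2 CPM plus 1. On counts, edgeR called 8 lower and 0 higher, among 525 genes called in either direction. Limma on log2 CPM plus 1 called 4 and 0, among 31 genes called. No share of all genes by direction was counted for these fits. In CPM, both optic nerve libraries lay below both retina libraries for 75 of 82 members, where 28.7% of all genes did so. Rpl13a had 2277 and 2100 CPM in retina and 339 and 161 CPM in optic nerve (-1.74 ± 0.24, limma adjusted p = 0.000307). Rpl23a had 2445 and 2107 CPM against 408 and 324 CPM (-1.69 ± 0.25), and Rps25 had 2709 and 2371 CPM against 709 and 482 CPM (-1.60 ± 0.26). For these 3 genes the tissues did not overlap. Leaving out an injured library leaves 1 in its group, and fewer members and fewer genes passed. The members' median was then -0.75 without injured retina 1 and 2 and -0.85 without 3 and 4. It was -0.85 without injured optic nerve 1 and -0.73 without 3.

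Other genes of translation were counted in the same fits. Of elongation and initiation factors, 7 of 33 rose and 1 fell in retina, with a median of 0.60, where 9.99% of all genes rose and 9.72% fell. Pabpc1, the poly(A)-binding protein, had 315 and 369 CPM in uninjured and 1130 and 984 CPM in injured retina (1.66 ± 0.28), and Eef2, the translocase, had 259 and 282 CPM against 772 and 627 CPM (1.40 ± 0.28). Of transcripts with a terminal oligopyrimidine tract or bound to ribosomes, 9 of 15 rose and 0 fell in retina, with a median of 1.03. This list also holds Eef1a1, Eef2 and Pabpc1 from the factors above, so the counts overlap. Rack1, a scaffold on the small subunit, had 448 and 282 CPM against 1888 and 1814 CPM (2.29 ± 0.32). In optic nerve, Eef1a1, which brings aminoacyl-tRNA to the ribosome, had 4534 and 4042 CPM in uninjured and 5412 and 5696 CPM in injured libraries (0.72 ± 0.14, limma adjusted p = 0.0249). Of ribosome biogenesis genes 2 of 14 rose in retina, near the share of all genes. Of mitochondrial ribosomal protein genes edgeR called 0 of 22, with a median of -0.20, and DESeq2 called 0. At an unadjusted p under 0.05 in edgeR, 0 of these were higher and 2 lower, with no share of all genes counted. Of growth and ribosome gene regulators 1 of 8 rose and 1 fell in retina, also near the share of all genes. Eif4ebp2 rose, with 0 and 0 CPM in uninjured and 70.4 and 99.7 CPM in injured retina. Its log2 difference of 8.29 ± 1.64 (edgeR adjusted p = 0.00703) rests on the 0 in uninjured retina. Rheb, the activator of mTOR, fell, with 154 and 158 CPM in uninjured and 71.1 and 61.1 CPM in injured retina. Its log2 difference was -1.20 ± 0.37 (edgeR adjusted p = 0.0443).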

How the data were processed

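Single-cell libraries were aligned to mm10 with Cell Ranger 1.3 after bcl2fastq 2.17.1.14 and processed with Seurat 4.0.3, per the submitters' processing notes; cells under 200 or over 6500 genes were removed, per the labels. The authors deposited UMI counts, not normalised, for 209 retina cells. The 959 cells of the optic nerve hold deposited natural log values, ln of 1 plus 10000 times UMIs over the cell's total. All 1374534 of these gave whole counts within 0.01 when undone. The deposited identifiers matched symbols in 31394 of 31833 cases (GENCODE M21, GRCm38).

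UMIs were summed per library. Crush in retina was tested with edgeR 4.0.16 (TMM, filterByExpr, first 27998 entries), and the other comparisons with limma 3.58.1 (trend) on genes detected in 10% of cells or more, over 8 libraries, with Benjamini-Hochberg adjustment over all genes tested. DESeq2 1.42.0 was an alternative. On simulated data edgeR recovered 12.5% of genes changed by 1 on the log2 scale and 79.3% of those changed by 2 in retina, over 2962 genes. In the simulations the changes were put into genes drawn from those above the median level, not into the members as a set. The simulated cells had a profile pooled over all libraries, no cell types and a set spread between libraries. The members and gene lists were chosen with earlier results of these data known.

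Cells were clustered with scanpy 1.11.5 without the members (2000 variable genes, 30 components, 15 neighbours, resolution 0.5), and a cluster was named when 2 of a type's markers were among its 10 and 3 among its 50 leading genes. Of 2 settings tried for ranking leading genes, the second (pseudocount 0.5, UMI in 25% of cells) was chosen after the output of the first (0.1, 20%) was seen, because the first left unnamed a cluster of 91 cells that the second names oligodendrocyte-like; leaving out other cell types removes 147 cells under the second and 56 under the first, and both are reported. Genes were named by role, by smallest adjusted p, by nearness to no change and by paralogy; 1 member that was fitted and counted is not reported here by name or in the figures.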

Additional observations from a re-analysis of the deposited data

Results flagged for a closer look

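For 9 members, 8 of them named here, the crush difference was smaller in optic nerve than in retina by limma's test of the difference itself, on mean ln values. The optic nerve difference minus the retina difference was -2.17 for Rpl17, -2.10 for Rps15, -1.48 for Rps21, -1.73 for Rpl23a, -1.58 for Rpl13a, -1.58 for Rpl5, -1.47 for Rps25 and -1.35 for Rplp2. Both retina groups also differ in gene annotation or merging, which cannot be told apart from crush there.

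The entry Rpl36a-ps1 lies among the gene entries not used for the retina test. It held 24 UMIs in injured retina (18 and 6). All 24183 of those entries hold 0 UMIs in uninjured retina, so the 0 there is set by the file and no comparison can be drawn from it.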

How the results depend on the processing

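No paired analysis was possible because libraries of injured and uninjured tissue share no replicate number within a tissue, and the injured retina columns each pool 2 samples. Members that rose in retina numbered 54 in the main fit, 26 with edgeR on all libraries and 26 to 74 with 1 library left out; the 1 that fell became 0 with no filter, with edgeR on all libraries and with limma, and 0 to 1 with 1 library left out. In optic nerve 2 rose, against 0 with edgeR, DESeq2, no filter or log2 CPM (plus 1 or 10), 1 with other cell types (T-like, endothelial-like, oligodendrocyte-like) left out, 4 with members left out of each cell's total and 0 to 3 with 1 library left out. The interaction had 9 lower, against 1 with no filter, 16 and 20 on log2 CPM plus 1 and plus 10, 14 with members left out of the total and 4 to 9 with 1 library left out.

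Between uninjured tissues 1 member was higher, against 0 with no filter, 6 with edgeR, 15 and 16 on log2 CPM, 0 under the first naming setting and 0 to 1 with 1 library left out; 11 were lower, against 7 with no filter, 1 with edgeR, 1 and 1 on log2 CPM, 2 without other cell types (13 under the first naming setting) and 2 to 10 with 1 library left out. Rpl35a turned to 0.13 with edgeR and to 0.19 and 0.19 on log2 CPM. Between injured tissues 60 were lower. With 1 library left out the members' median ran from -0.85 to -0.73, and fewer were lower in most of these fits. With no filter 34 were lower (440 genes called in either direction) and with edgeR 8 (525 genes). On log2 CPM plus 1 and plus 10 they were 4 and 8 (31 and 87 genes). Without other cell types 25 were lower (764 genes). Under the first naming setting, added after seeing the data, 46 were lower (890 genes). So leaving out the cluster named under only 1 setting moves both tissue counts. The causes were not tested.

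The members' share of UMIs moved by more than the spread between libraries in these cases: in injured retina to 24.0% and 22.9% as medians over cells, 23.7% and 23.2% without other cell types (the same under both naming settings) and 25.1% and 24.6% without mitochondrial genes; in uninjured optic nerve to 8.35% and 7.75% as medians, 18% and 13.4% without other cell types, 12.2% for sample 4 under the first naming setting and 17.3% for sample 2 without mitochondrial genes; in injured optic nerve 1 to 21.2% and 18.9%. Uninjured retina had the fewest cells of the 4 groups, 31 and 12, which limits its precision, although its median UMIs per cell, 4250 and 4712, were above those of every optic nerve library.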
